A study of Mus musculus with 8 samples.

Results

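The genes described here were 7 ligands of the TNF superfamily (Tnf, Lta, Ltb, Tnfsf9, Tnfsf10, Tnfsf13b and Tnfsf15) and 3 of its receptors (Tnfrsf1a, Tnfrsf1b and Fas), found by symbol among the Ensembl genes of the deposited table, 10 of 55359 genes in all. All 10 were measured and passed the filter on low values. Total RNA was sequenced from bone marrow-derived macrophages (BMDMs) of adult male and female C57BL/6 wildtype mice, grown in M-CSF and GM-CSF at 20 ng/mL each. The 4 groups had n = 2 samples each: Ctrl (naïve BMDMs), LPS (naïve BMDMs kept for 6 h with LPS at 100 ng/mL plus IFNγ at 100 U/mL), Eff (efferocytic BMDMs) and LPSEff (efferocytic BMDMs given the same LPS/IFNγ for 6 h). Efferocytic BMDMs had spent 16 h with apoptotic NIH-3T3 CA cells, 5 for each macrophage (Mϕ). NIH-3T3 CA cells are a mouse fibroblast line with an activatable caspase-8 that kills the cells when a dimerizer (10 nM) is added. CD45+ cells were isolated with beads before RNA extraction in all groups. Whether Ctrl and LPS also received the dimerizer is not said, so that the dimerizer and efferocytosis cannot be told apart in comparisons with Eff or LPSEff. Nothing says that the samples of a group came from separate animals or cultures, and p-values then measure the spread between these samples, which may be technical.

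Ligands of the TNF superfamily are mostly made as membrane proteins that assemble into trimers, and several are cut off the cell surface by proteases. Receptors with a death domain, such as TNFR1 (Tnfrsf1a) and Fas, can recruit caspase-8 and start apoptosis, whereas TNFR2 (Tnfrsf1b) has no death domain and binds TRAF adaptors directly. In Mϕ, Tnf is among the best known early response genes to LPS, and its mRNA is held in check by proteins that bind its AU-rich element.

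Values are normalized counts, which are reads per gene divided by the sample's size factor. The 8 samples held 3481288 to 12020918 reads on genes, with a median of 8431112.5, and a count of 3 reads corresponded to 1.73 to 5.71 normalized counts. All 9 macrophage markers were expressed in all groups, with summed levels of 106438 to 162354 normalized counts. Of the T and NK cell markers, Cd3e had at most 5 reads in a sample and Ncr1 at most 1. Others were higher: Cd28 reached 804 reads (Ctrl replicate 2), Cd247 213 and Lck 49 (both LPS replicate 2), and Eomes 14 (LPSEff replicate 1). The whole lists summed to 236 to 691 normalized counts for T cells, 12.7 to 47.9 for B cells, 5.65 to 32.3 for NK cells and 694 to 2500 for neutrophils. The neutrophil and T cell lists also differed with LPS/IFNγ. The neutrophil list went from 694 to 1007 normalized counts in Ctrl to 1743 to 2072 in LPS and from 1110 to 1465 in Eff to 1791 to 2500 in LPSEff, and of its 5 tested markers 3 were called higher in LPS vs Ctrl and 1 in LPSEff vs Eff. The T cell list went from 610 to 691 in Ctrl to 310 to 343 in LPS and from 502 to 559.9 in Eff to 236 in both LPSEff samples, mostly through Cd28 (615 and 465 in Ctrl against 60.8 and 45.7 in LPS), with 2 of 4 tested markers called higher and 1 lower in LPS vs Ctrl. Their part in the changes of the 10 genes was not tested. The 10 fibroblast markers summed to 89.5 to 139 normalized counts in Ctrl, 366 to 510 in LPS, 1054 to 2109 in Eff and 3046 to 3499 in LPSEff. Among them, Pdgfrb alone went from 15.2 and 11.6 in Ctrl to 246 and 245 in LPS. In these bulk samples, fewer cells of a type and less RNA per cell cannot be told apart. Intervals and floors given for reads cover counting error only.

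Tnf, Lta and Ltb lie side by side on mouse chromosome 17. Lta (35422141 to 35424327, minus strand) ended 1157 bases before Tnf (35418357 to 35420983, minus strand), and Ltb (35413382 to 35415296, plus strand) was separated from Tnf by 3060 bases on the other side. The 250 bases before the canonical start of these 3 neighbours and of Tnfsf15 (chromosome 4, 63642840 to 63663442, minus strand), whose level changed most among the 10 genes, are given 5′ to 3′, because 3 of these 4 genes were higher after LPS/IFNγ and Ltb was not called. Capitals mark matches to the motifs searched.
Tnf (GRCm39 chr17:35420984-35421233, minus strand): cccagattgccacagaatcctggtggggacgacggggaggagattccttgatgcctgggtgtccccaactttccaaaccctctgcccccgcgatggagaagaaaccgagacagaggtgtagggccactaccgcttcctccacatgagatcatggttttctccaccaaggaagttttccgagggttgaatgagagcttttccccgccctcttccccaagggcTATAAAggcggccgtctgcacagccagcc
Lta (GRCm39 chr17:35424328-35424577, minus strand): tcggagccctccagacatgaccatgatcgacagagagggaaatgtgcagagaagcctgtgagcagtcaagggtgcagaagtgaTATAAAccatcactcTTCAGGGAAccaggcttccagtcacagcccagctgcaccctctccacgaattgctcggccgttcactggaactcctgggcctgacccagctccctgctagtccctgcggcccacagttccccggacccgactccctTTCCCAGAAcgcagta
Ltb (GRCm39 chr17:35413132-35413381, plus strand): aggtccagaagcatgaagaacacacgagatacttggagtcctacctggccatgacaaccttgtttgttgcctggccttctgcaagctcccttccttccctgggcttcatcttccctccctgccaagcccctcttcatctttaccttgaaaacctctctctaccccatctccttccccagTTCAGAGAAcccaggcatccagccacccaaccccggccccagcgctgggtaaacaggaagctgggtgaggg
Tnfsf15 (GRCm39 chr4:63663443-63663692, minus strand): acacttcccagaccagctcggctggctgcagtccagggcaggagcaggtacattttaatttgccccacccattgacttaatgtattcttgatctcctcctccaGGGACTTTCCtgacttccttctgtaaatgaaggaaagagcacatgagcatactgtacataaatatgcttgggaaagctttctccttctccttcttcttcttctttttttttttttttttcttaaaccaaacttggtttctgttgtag

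The motifs were searched on both strands in the same window of all 10 genes and of 21614 protein-coding genes. The TATA box (TATAAA) matched 29 bases before the start of Tnf, 167 before Lta and 184 before Tnfsf9, and was present in 11.95% of all promoters. The NF-κB consensus matched before Tnfsf15 alone among the 10 genes (GGGACTTTCC, from 147 bases before the start), against 4.215% of all promoters. The gamma-activated site (TTCNNNGAA), a motif of genes that respond to IFNγ, matched before 5 genes (Lta, Ltb, Tnfrsf1a, Tnfrsf1b and Fas) and in 7.726% of all promoters. The core of the interferon-stimulated response element matched before Tnfsf13b and Tnfrsf1b and in 3.317% of all promoters, and the AP-1 site (TGANTCA) before Tnfsf13b and Fas and in 6.19%. Among the 12490 promoters of genes that passed the filter, as the 10 did, the TATA box was present in 7.494%. There the NF-κB consensus had 4.564%, the gamma-activated site 6.709%, the interferon-stimulated core 3.187% and the AP-1 site 4.62%. Matches were thus also present before Ltb and Tnfsf13b, which were not called in any comparison. Motifs of different names did not overlap in the windows shown. A match describes letters and no site of binding, and a missing match says only that these letters are not in this window.

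The first question was which of the 10 genes responded to LPS/IFNγ, in naïve and in efferocytic BMDMs. In naïve BMDMs, 8 of the 10 genes rose (limma, adjusted p under 0.05), all except Ltb and Tnfsf13b, where 24% of the 16309 genes tested were called in either direction, 12.4% higher and 11.6% lower. The median log2 fold change of the 10 genes was 2.05, against -0.01 for all genes tested. In efferocytic BMDMs, 7 genes rose, the same as in naïve BMDMs but for Tnfrsf1a (called there when the replicate number was a block), where 19.7% of all genes were called, 10.7% higher and 8.95% lower. Here the median was 2.62, against 0.01 for all genes. None of the 10 fell in either comparison. Fold changes are on the scale of log2(normalized count + 1), which understates the change of low genes.

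**Figure D1:**
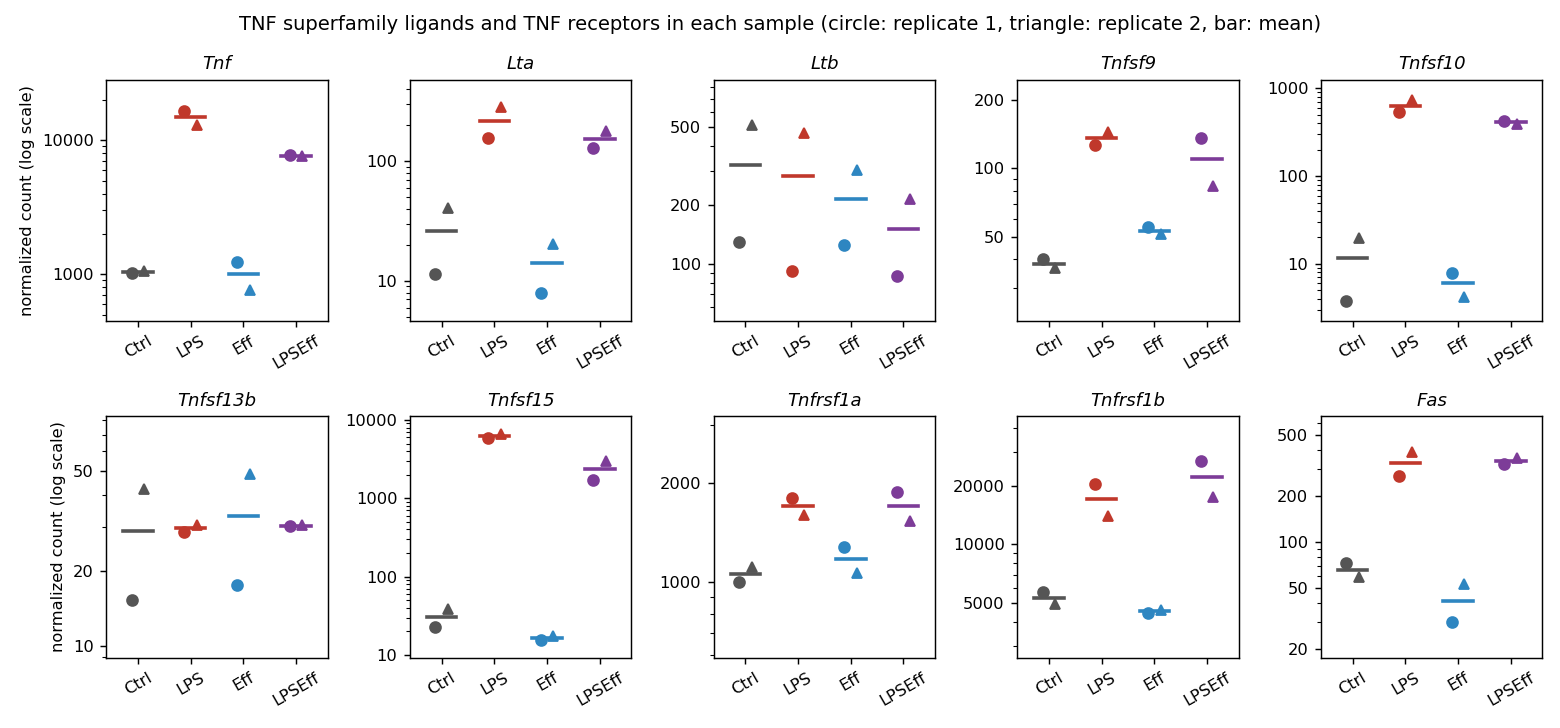
Normalized count (log scale) of each of the 10 genes in the 8 samples, by group, with replicate 1 as a circle, replicate 2 as a triangle and the group mean as a bar. Both LPS samples and both LPSEff samples lie above all Ctrl and Eff samples for Tnf, Lta, Tnfsf9, Tnfsf10, Tnfsf15, Tnfrsf1a, Tnfrsf1b and Fas, while Ltb and Tnfsf13b overlap between groups. How many of all genes tested separate in this way was not counted.

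Tnf encodes the founding cytokine of the family. It measured 1026 and 1053 normalized counts in Ctrl against 16647 and 12948 in LPS, with 1232 and 764 in Eff against 7749 and 7573 in LPSEff. Stimulated samples were all above unstimulated ones, and both LPS samples were above both LPSEff samples. The rise was 14.1-fold in naïve BMDMs (log2 3.82, SE 0.25, adjusted p = 6e-05 from limma) and 7.89-fold in efferocytic BMDMs (log2 2.98, SE 0.25, adjusted p = 0.000159).

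Lta encodes lymphotoxin-α, which is secreted as a trimer and binds the same receptors as TNF. Its levels were 11.4 and 41.1 normalized counts in Ctrl against 155 and 282 in LPS, with 7.89 and 20.5 in Eff against 128 and 179 in LPSEff. Again no stimulated sample overlapped an unstimulated one, although the Ctrl samples rested on 6 and 71 reads. Lta rose by 3.20 on the log2 scale (SE 0.64, adjusted p = 0.00876) in naïve and by 3.46 (SE 0.64, adjusted p = 0.00721) in efferocytic BMDMs. Without Ctrl replicate 1 the first value was 2.32 with an adjusted p of 0.0503, and without Ctrl replicate 2 it was 4.08. Leaving out Eff replicate 1 or 2 gave 2.83 or 4.10 for the second.

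Ltb encodes lymphotoxin-β, the membrane-bound partner of lymphotoxin-α in the trimer that binds the lymphotoxin-β receptor. It measured 129 and 514 normalized counts in Ctrl against 91.8 and 468 in LPS, with 124 and 303 in Eff against 87.1 and 214 in LPSEff. All 4 groups overlapped, and replicate 2 was above replicate 1 in each, by 2.44 to 5.10 times. The log2 fold changes were -0.31 (SE 0.90, adjusted p = 0.847) for LPS vs Ctrl and -0.50 (SE 0.90, adjusted p = 0.758) for LPSEff vs Eff, so that the 95% interval of the first ran from -2.38 to 1.75. This order was common, since 29.1% of the 16309 genes tested were higher in replicate 2 of all 4 groups and 14.7% were lower in all 4. Of the 10 genes, Lta (1.40 to 3.59 times), Tnfsf13b (1.01 to 2.78 times) and Tnfsf15 (1.12 to 1.76 times) were likewise higher in replicate 2 of each group. So were 3 of the 9 macrophage markers, Ptprc (1.52 to 2.09 times), Adgre1 (1.16 to 1.58 times) and Itgam (1.14 to 1.48 times), and 3 of the 6 dendritic cell markers, Zbtb46 (1.27 to 2.74 times), Flt3 (1.56 to 2.90 times) and Xcr1 (1.45 to 5.34 times). The other dendritic cell markers did not show this in all groups: the ratio ranged from 0.916 to 1.88 for Ccr7, from 0.268 to 2.13 for Cd209a and from 0.911 to 1.60 for Clec9a. Summed, the 6 dendritic cell markers ranged from 2039 to 2576 normalized counts in Ctrl, from 8292 to 16025 in LPS, from 1312 to 1620 in Eff and from 6483 to 6688 in LPSEff. Most of each sum was Ccr7 alone, at 1839 and 2128 in Ctrl against 7649 and 14409 in LPS. The part of these 6 markers in the levels of Lta and Ltb was not tested.

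Tnfsf15 encodes TL1A, a ligand of death receptor 3, and it had the highest fold change of the 10 genes in both comparisons. It measured 22.9 and 38.2 normalized counts in Ctrl against 5800 and 6514 in LPS, with 15.8 and 17.6 in Eff against 1697 and 2993 in LPSEff. The groups formed a ladder without overlap, with Eff lowest, then Ctrl, LPSEff and LPS. LPS/IFNγ raised Tnfsf15 by 7.65 on the log2 scale (SE 0.32, adjusted p = 9.5e-06) in naïve BMDMs, a fold change of 201 with a 95% interval from 120 to 336. In efferocytic BMDMs the log2 rise was 6.99 (SE 0.32, adjusted p = 1.34e-05), a fold change of 127.

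Tnfsf10 encodes TRAIL, a ligand of death receptors that can kill tumor and virus-infected cells. It went from 3.81 and 19.7 normalized counts in Ctrl to 533 and 739 in LPS, and from 7.89 and 4.23 in Eff to 429 and 392.2 in LPSEff. The unstimulated samples rested on few reads (2 and 34 in Ctrl, 9 and 6 in Eff), while each stimulated sample had at least 309. The log2 fold changes were 5.98 (SE 0.61, adjusted p = 0.000423) and 5.91 (SE 0.61, adjusted p = 0.00046). Without Ctrl replicate 1, which had the 2 reads, the first was 4.93, and without Ctrl replicate 2 it was 7.03.

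Tnfsf9 encodes 4-1BB ligand, which costimulates T cells. It measured 40.0 and 36.4 normalized counts in Ctrl against 127 and 144 in LPS, with 55.2 and 51.5 in Eff against 135 and 83.8 in LPSEff. Stimulated samples were above unstimulated ones without overlap, with LPSEff replicate 2 the lowest of the stimulated samples. Tnfsf9 rose by 1.80 (log2, SE 0.29, adjusted p = 0.0035) in naïve BMDMs. In efferocytic BMDMs it rose by 0.98 (SE 0.29), close to the threshold with an adjusted p of 0.0481 from limma. Of 14 alternative fits, 8 made this call. This call was lost without Eff replicate 1 (adjusted p = 0.145), without Eff replicate 2 (0.182) and without LPSEff replicate 1 (0.276), as well as when the samples were rescaled to equal totals (0.54, adjusted p = 0.203).

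Tnfsf13b encodes BAFF, a survival factor of B cells that Mϕ and dendritic cells are known to make. It stayed between 15.2 and 48.7 normalized counts in all samples, with 15.2 and 42.2 in Ctrl against 28.5 and 30.5 in LPS, with 17.5 and 48.7 in Eff against 30.1 and 30.5 in LPSEff. Both stimulated groups fell within the range of the unstimulated ones. The log2 difference of 0.20 (SE 0.59, adjusted p = 0.85, 95% interval -1.15 to 1.55) for LPS vs Ctrl and that of 0.04 (SE 0.59, adjusted p = 0.972) for LPSEff vs Eff did not pass the test. The sign of both depended on the scaling, since rescaling to equal totals gave -0.18 and -0.39.

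Among the receptors, Tnfrsf1b (TNFR2, chromosome 4, 144938938 to 144973477, minus strand) was the most abundant transcript. It measured 5714 and 4925 normalized counts in Ctrl against 20373 and 13930 in LPS, with 4443 and 4607 in Eff against 26848 and 17582 in LPSEff. Stimulated and unstimulated samples did not overlap, whereas LPS and LPSEff did. Tnfrsf1b rose by 1.67 (log2, SE 0.28, adjusted p = 0.00398) in naïve and by 2.26 (SE 0.28, adjusted p = 0.00106) in efferocytic BMDMs. Under quantile normalization the first value was 0.79 with an adjusted p of 0.151.

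Tnfrsf1a (TNFR1, chromosome 6, 125325566 to 125339632, plus strand), a receptor with a death domain, had the smallest log2 fold changes of the 3 receptors in both comparisons. Its levels were 1000 and 1109 normalized counts in Ctrl against 1803 and 1598 in LPS, with 1279 and 1066 in Eff against 1879 and 1534 in LPSEff. Stimulated samples were again above unstimulated ones without overlap. The log2 fold change was 0.69 (SE 0.19, adjusted p = 0.0333 from limma) for LPS vs Ctrl and 0.54 (SE 0.19, adjusted p = 0.0869) for LPSEff vs Eff. Of 14 alternative fits, 6 called Tnfrsf1a in LPS vs Ctrl. The call in naïve BMDMs was lost without any one of the 4 samples, with adjusted p-values from 0.0582 (without LPS replicate 2) to 0.162 (without Ctrl replicate 1), and at equal totals (log2 0.29, adjusted p = 0.318). With the replicate number as a block, Tnfrsf1a was called in efferocytic BMDMs too, with adjusted p-values of 0.0137 (limma), 0.0108 (edgeR) and 0.00554 (DESeq2), so that 8 of the 10 genes rose there, where limma with the block called 19% of all genes higher.

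Fas (chromosome 19, 34268001 to 34305173, plus strand), the death receptor for Fas ligand, was the least abundant of the 3 receptors. It measured 72.4 and 59.0 normalized counts in Ctrl against 272 and 390 in LPS, with 29.8 and 52.9 in Eff against 324 and 353 in LPSEff. Both stimulated groups were above both unstimulated groups, and both Eff samples were below both Ctrl samples. Fas rose by 2.30 (log2, SE 0.32, adjusted p = 0.00168) in naïve and by 3.06 (SE 0.32, adjusted p = 0.000464) in efferocytic BMDMs. Fas ligand itself (Fasl) had at most 1 read in any of the 8 samples.

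Stimulated samples had more normalized counts in total (8470249 to 9489294) than unstimulated ones (6587737 to 6951788). Rescaling to equal totals shifted the median of all genes to -0.40 for LPS vs Ctrl and to -0.44 for LPSEff vs Eff, and the share of called genes that were higher went from 51.5% to 24.8% and from 54.6% to 21.8%. Under this scaling 7 of the 10 genes rose in naïve BMDMs and 6 in efferocytic BMDMs, and Tnfrsf1a was not called in either. In the same fit limma called 5735 of the 16309 genes tested in LPS vs Ctrl and 5578 in LPSEff vs Eff, in either direction.

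**Figure D2:**
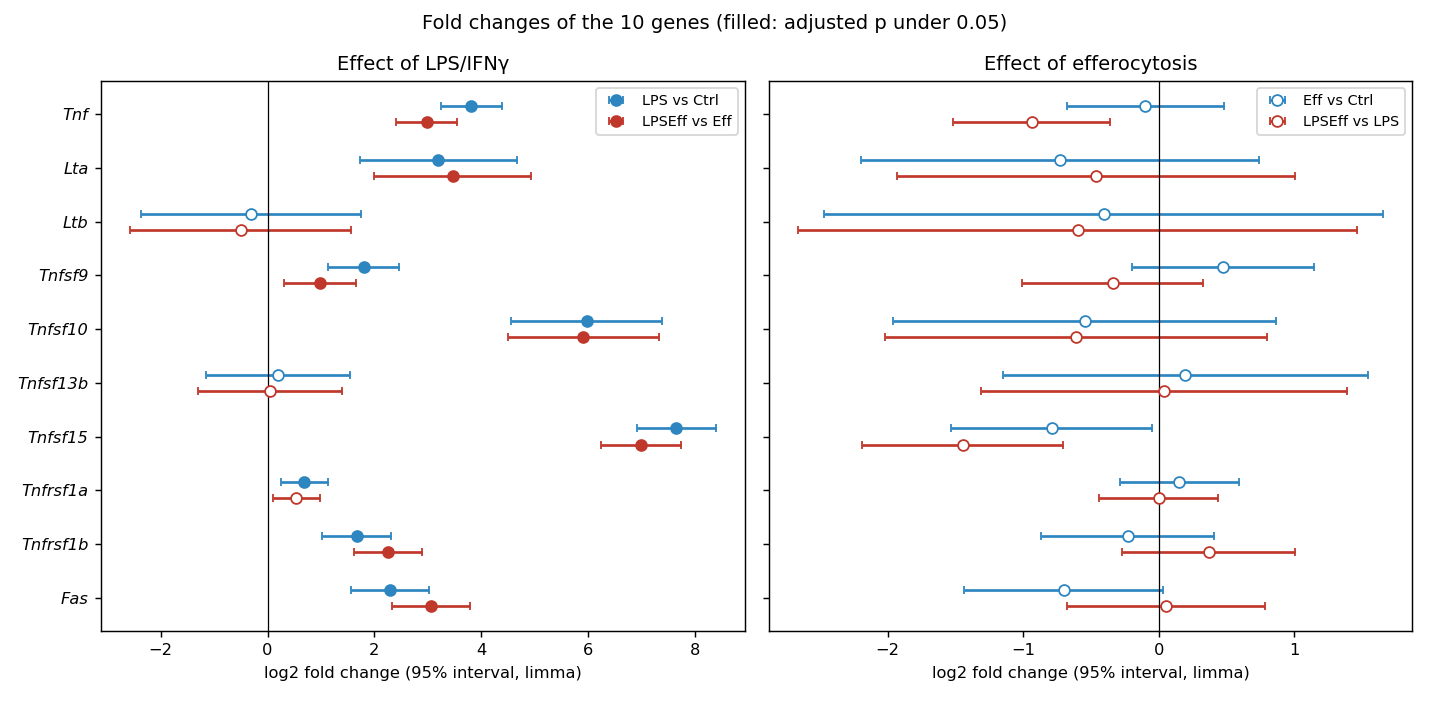
Log2 fold changes of the 10 genes with 95% intervals from limma, for LPS/IFNγ (left) and for efferocytosis (right), with filled symbols where the adjusted p was under 0.05. On the left, only the points of Ltb lie below 0 (-0.31 and -0.50), those of Tnfsf13b lie at 0.20 and 0.04 and those of the other 8 genes from 0.54 to 7.65. On the right no point is filled.

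The second question was whether efferocytosis changed the 10 genes, before or after LPS/IFNγ. Without a replicate block, limma called none of them in either comparison. With the replicate number as a block, limma called Tnf and Tnfsf15 lower in LPSEff vs LPS, where it called 6.97% of all genes, and again 0 of the 10 in Eff vs Ctrl (2.67%). In unstimulated BMDMs (Eff vs Ctrl), 0.251% of all genes were called, 1 of the 10 had an unadjusted p under 0.05 (Tnfsf15) against 6.13% of all genes, and 0 were called by edgeR (0.0858% of all genes) and DESeq2 (1.25%). In stimulated BMDMs (LPSEff vs LPS), 0.773% of all genes were called, 2 of the 10 had an unadjusted p under 0.05 (Tnf and Tnfsf15) against 10.3% of all genes, edgeR called 0 (0.773% of all genes) and DESeq2 called these 2 (2.26%). The median log2 fold change of the 10 genes was -0.32 and -0.40, against -0.01 and -0.0025 for all genes. Comparisons that share samples, such as LPS vs Ctrl with LPSEff vs LPS, are not independent of each other, and an exact permutation test of 2 against 2 samples cannot go below p = 0.333.

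Tnf was lower in both LPSEff samples than in either LPS sample, at 52.2% of the LPS level (95% interval 34.99% to 77.8%). The log2 fold change was -0.94 (SE 0.25) with an unadjusted p of 0.00548 and an adjusted p of 0.197 from limma. With edgeR the adjusted p was 0.22, and with DESeq2 it was 0.0376. With the replicate block it was 0.0131 from limma (SE 0.18). In unstimulated BMDMs the Eff samples (1232 and 764 normalized counts) lay on either side of the Ctrl samples, with a log2 difference of -0.10 (SE 0.25, adjusted p = 0.999). The LPSEff samples differed by little among themselves (7749 and 7573 normalized counts), less than the LPS samples (16647 and 12948).

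Tnfsf15 was at 36.7% of the LPS level in LPSEff (95% interval 21.9% to 61.3%), with a log2 difference of -1.45 (SE 0.32), an unadjusted p of 0.00191 and an adjusted p of 0.124. The adjusted p was 0.0768 with edgeR, 0.000324 with DESeq2 and 0.00216 from limma with the replicate block (SE 0.20). Without stimulation, the Eff samples (15.8 and 17.6 normalized counts, from 18 and 25 reads) were below the Ctrl samples (22.9 and 38.2, from 12 and 66 reads), with a log2 difference of -0.79 (SE 0.32, adjusted p = 0.761). Leaving out a replicate kept the difference between LPSEff and LPS between -1.86 and -1.04.

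The other 8 genes were not called with efferocytosis by limma, edgeR or DESeq2, with or without the block. Tnfsf10 in LPSEff (429 and 392.2 normalized counts) was below both LPS samples (533 and 739), with a log2 difference of -0.61 (SE 0.61, adjusted p = 0.832). Fas in Eff was below Ctrl without overlap (log2 -0.70, SE 0.32, adjusted p = 0.839), but its LPSEff and LPS samples overlapped (log2 0.05, SE 0.32, adjusted p = 0.985). Tnfsf9 was higher and Tnfrsf1b was lower in both Eff samples than in both Ctrl samples, with log2 fold changes of 0.47 (SE 0.29) and -0.23 (SE 0.28) and an adjusted p of 0.999 each. How many of all genes tested had groups without overlap was not counted for either comparison, so that such separation is description only. Groups of the remaining genes, Lta, Ltb, Tnfsf13b and Tnfrsf1a, overlapped in both comparisons. For Tnfrsf1a the 95% interval of LPSEff vs LPS ran from -0.44 to 0.44, and for Fas from -0.68 to 0.79.

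Fibroblast markers moved with efferocytosis: 4 of the 7 tested were called higher in Eff than in Ctrl and 5 of 7 in LPSEff than in LPS, with median log2 fold changes of 4.47 in both. Col1a2, for instance, went from 28.5 and 83.3 normalized counts in LPS to 1913 and 1369 in LPSEff. Pdgfrb went the other way, from 246 and 245 in LPS to 82.3 and 157 in LPSEff. Thy1 measured 38.8 and 88.3 in LPS against 38.0 and 48.2 in LPSEff. Since the fibroblasts were mouse cells, their reads cannot be told apart from those of Mϕ by species. The part of fibroblast RNA in the levels of the 10 genes was not tested.

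Whether efferocytosis changed the response to LPS/IFNγ was tested as the difference between both LPS/IFNγ effects. This interaction was called for none of the 16309 genes (0%) by limma, with 311 genes at an unadjusted p under 0.05, and for none by edgeR or DESeq2 (369 and 244 genes). Among the 10 genes, Tnf had an unadjusted p under 0.05: its log2 rise was 0.84 smaller in efferocytic BMDMs (interaction -0.84, SE 0.36, unadjusted p = 0.0450, adjusted p = 1.00). The interactions of Tnfsf9 (-0.81, SE 0.41), Tnfsf15 (-0.66, SE 0.46), Tnfrsf1b (0.60, SE 0.39) and Fas (0.76, SE 0.45) had adjusted p-values of 1.00 each. The intervals were wide, for example from -1.71 to 0.39 for Tnfsf15.

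Levels of different genes were compared per kilobase of exon, as normalized counts divided by the length of the exons. In Ctrl, Tnfrsf1b was highest (1154 and 995 per kb), followed by Tnf (626 and 643) and Tnfrsf1a (317 and 352), and the samples of these 3 neighbours did not overlap. Next came Ltb (83.6 and 332), which overlapped Tnfrsf1a, then Tnfsf9, Fas and Lta, which overlapped their neighbours in the order at means of 28.8, 28.3 and 16.3 per kb. Tnfsf15, Tnfsf13b and Tnfsf10 were lowest, with means of 5.15, 4.18 and 2.17 per kb and overlapping samples. In Eff the order of the 7 highest was the same as in Ctrl. After LPS/IFNγ, Tnf was first in LPS at 10157 and 7900 per kb, above Tnfrsf1b (4116 and 2814) without overlap. Tnfsf15 took the third place at 980 and 1100 per kb, above Tnfrsf1a (573 and 508), also without overlap. Tnfsf10 rose to a mean of 118 per kb, among Fas (143), Lta (136) and Tnfsf9 (102), and each of these overlapped its neighbour in the order. In LPSEff, Tnf (4728 and 4620 per kb) and Tnfrsf1b (5424 and 3552) overlapped, as did Tnfrsf1a (597 and 487) and Tnfsf15 (287 and 506). Tnfsf13b was last in both stimulated groups, at 4.29 and 4.41 per kb.

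**Figure D3:**
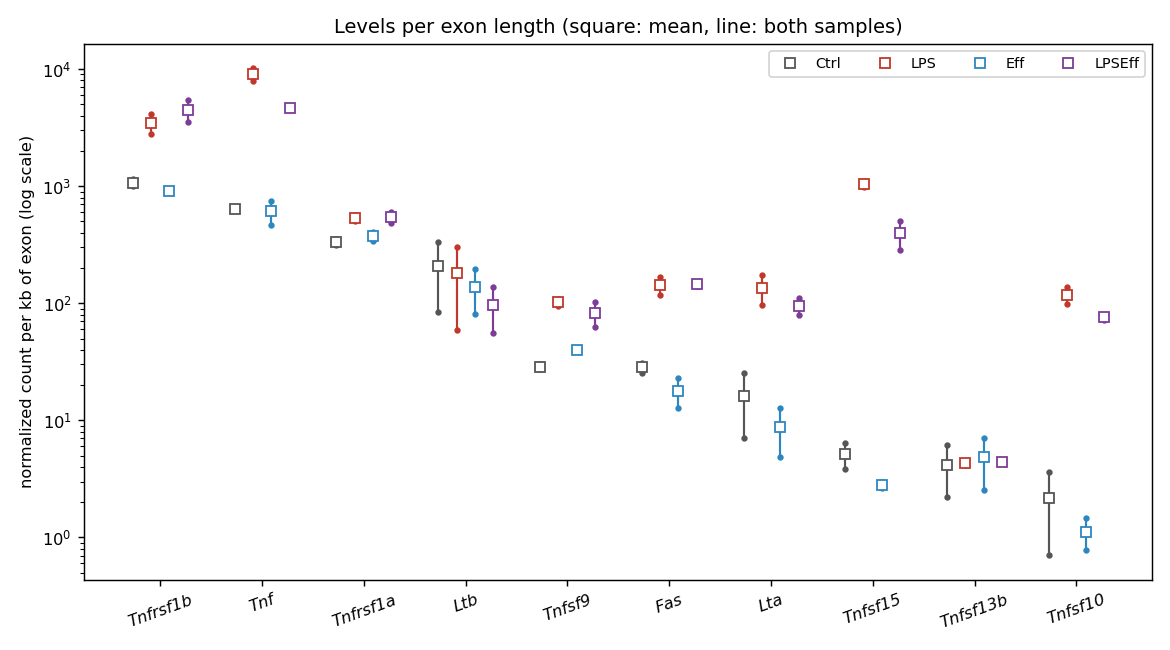
Normalized count per kilobase of exon (log scale) for the 10 genes, ordered by their level in Ctrl, with both samples of each group joined by a line and the mean as a square. Tnfsf15 and Tnfsf10 move from the lowest places in Ctrl and Eff (1.12 to 5.15 per kb) to means of 1040 and 118 per kb in LPS, while the groups of Ltb and Tnfsf13b overlap.

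Tnf made up most of the summed ligand mRNA per kilobase in every sample. Its share of the 7 ligands was 83.1% and 61.6% in Ctrl against 88.4% and 81.2% in LPS, with 84.9% and 64.4% in Eff against 88.6% and 83.8% in LPSEff. In unstimulated samples Ltb was second, at 11.1% and 31.8% in Ctrl and 9.08% and 27.0% in Eff. In stimulated samples Tnfsf15 was second, at 8.53% and 11.3% in LPS and 5.37% and 9.17% in LPSEff. The ratio of TNFR2 to TNFR1 mRNA per kilobase was 3.64 and 2.83 in Ctrl against 7.19 and 5.54 in LPS, with 2.21 and 2.75 in Eff against 9.09 and 7.29 in LPSEff. Ratios of stimulated samples were all above those of unstimulated ones.

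Around the Tnf locus, the window of 50 kb to each side of the Tnf start held 19 listed genes, of which 13 were tested. For LPS vs Ctrl, 4 of them rose, namely Tnf, Lta, Nfkbil1 (log2 0.84, SE 0.24, adjusted p = 0.0371) and Gm16181 (log2 1.41, SE 0.34, adjusted p = 0.0199), a noncoding RNA that lies within Nfkbil1 on the opposite strand. For LPSEff vs Eff, 3 rose, Tnf, Lta and Gm16181 (log2 1.78, SE 0.34, adjusted p = 0.00851), and none fell in either comparison. All genes tested were called higher at 12.4% and lower at 11.6% in LPS vs Ctrl, and at 10.7% and 8.95% in LPSEff vs Eff. The 13 genes include Tnf, Lta and Ltb, already described, so that these counts are no separate result on the locus. Without Ctrl replicate 1, Ctrl replicate 2 or LPS replicate 1, neither Nfkbil1 (adjusted p = 0.103 to 0.185) nor Gm16181 (0.0843 to 0.114) was called, and Gm16181 was not called in LPSEff vs Eff without Eff replicate 1 (0.0600) or LPSEff replicate 1 (0.0574). Aif1, the gene of a Mϕ calcium-binding protein, was, like Ltb, higher in replicate 2 of all 4 groups. It measured 107 and 492 normalized counts in Ctrl against 153 and 1054 in LPS, with 78.0 and 326 in Eff against 143 and 520 in LPSEff. Without the replicate block, limma called none of the 13 genes with efferocytosis.

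**Figure D4:**
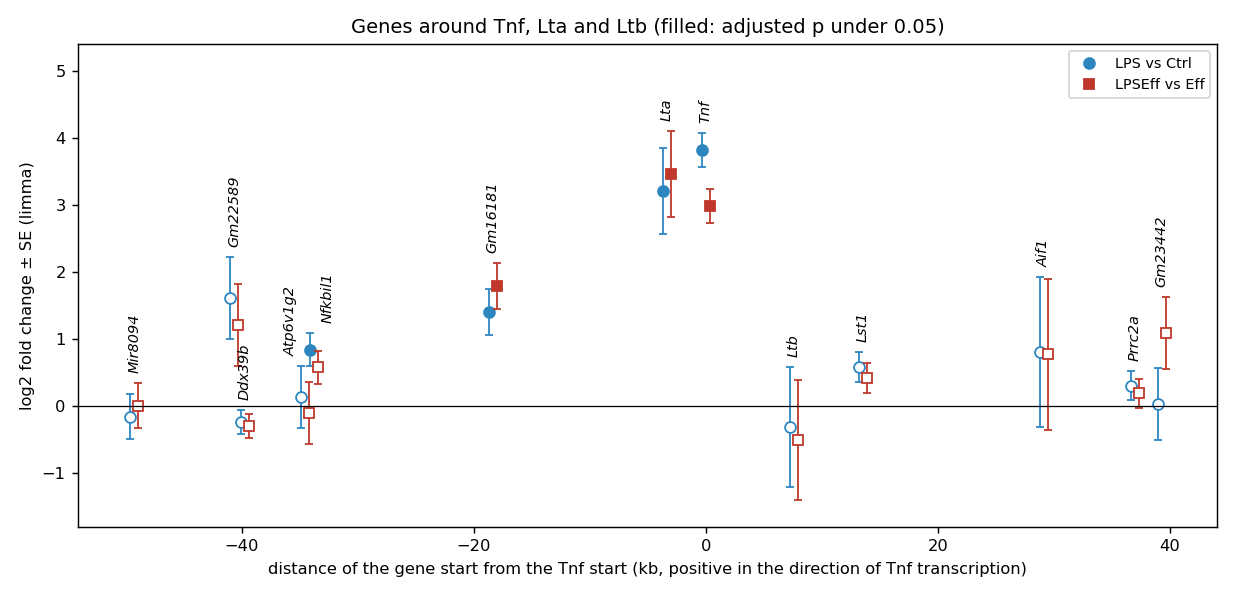
Log2 fold change with SE (limma) of the 13 tested genes around Tnf, against the distance of the gene start from the Tnf start in kb, with filled symbols where the adjusted p was under 0.05. Tnf and Lta stand at 2.98 to 3.82, while Ltb, on the other side of Tnf, lies at -0.31 and -0.50.

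The partners of the ligands, singled out after their values had been seen, were measured at different levels. Tnfrsf9, which encodes 4-1BB and pairs with Tnfsf9, rose from 535 and 900 normalized counts in Ctrl to 1212 and 2146 in LPS (log2 1.21, SE 0.33, adjusted p = 0.0321) and from 763 and 901 in Eff to 2648 and 2052 in LPSEff (log2 1.49, SE 0.33, adjusted p = 0.0161). The first call was lost without Ctrl replicate 1 (adjusted p = 0.189) or LPS replicate 2 (0.143), and the second without Eff replicate 1 (0.0938), Eff replicate 2 (0.0550) or LPSEff replicate 1 (0.101). Ltbr, the receptor of lymphotoxin trimers, lay between 388 and 587 normalized counts in all samples and was not called. Death receptor 3 (Tnfrsf25), the receptor of TL1A, had at most 24 reads in a sample and was not tested. Tnfrsf10b, the mouse TRAIL receptor with a death domain, lay between 34.9 and 89.1 normalized counts and was not called. Of the BAFF receptors, Tnfrsf13b (TACI) lay between 279 and 588 normalized counts and was not called, while Tnfrsf13c and Tnfrsf17 were too low to be tested.

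The other ligands of the superfamily went both ways. Of 11, 6 passed the filter on low values, and 3 of these rose (Cd70, Tnfsf4 and Tnfsf8) and 3 fell (Tnfsf12, Tnfsf13 and Tnfsf14) in LPS vs Ctrl. In LPSEff vs Eff, 2 rose and 3 fell. Of all genes tested, 12.4% were called higher and 11.6% lower in LPS vs Ctrl, and 10.7% and 8.95% in LPSEff vs Eff. Cd70, which costimulates T cells, had at most 3 reads in each unstimulated sample, so that no fold change is given, and measured 77.6 and 70.1 normalized counts in LPS and 42.8 and 20.3 in LPSEff (adjusted p = 0.00179 and 0.00712). The latter call was lost without LPSEff replicate 1 (adjusted p = 0.0711).

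Tnfsf4 encodes OX40 ligand. It rose from 85.7 and 122 normalized counts in Ctrl to 557 and 940 in LPS (log2 2.81, SE 0.35, adjusted p = 0.00103), and from 55.2 and 72.7 in Eff to 291 and 472 in LPSEff (log2 2.53, SE 0.35, adjusted p = 0.00191). Tnfsf14, which encodes LIGHT, another ligand of the lymphotoxin-β receptor, fell from 225 and 234 to 24.6 and 21.3 (log2 -3.27, SE 0.58, adjusted p = 0.00542). In efferocytic BMDMs it fell from 748 and 406 to 158 and 38.1 (log2 -2.81, SE 0.58, adjusted p = 0.012), a call lost without Eff replicate 1 (adjusted p = 0.0818). Without LPSEff replicate 1 or 2 this value was -3.82 or -1.79. Both Eff samples of Tnfsf14 were above Ctrl and both LPSEff samples above LPS, with log2 fold changes of 1.26 (adjusted p = 0.86) and 1.72 (adjusted p = 0.331). The second had an adjusted p of 0.014 with DESeq2 and of 0.0284 from limma with the replicate block.

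Of 25 other receptors, 18 were tested, and 5 rose and 5 fell in LPS vs Ctrl. In LPSEff vs Eff, 5 rose and 1 fell. The shares of all genes tested were 12.4% higher and 11.6% lower in LPS vs Ctrl, and 10.7% and 8.95% in LPSEff vs Eff. Cd40, the receptor through which T cells activate Mϕ, had the highest fold change of this list: it rose from 68.6 and 120 normalized counts in Ctrl to 6128 and 9749 in LPS (log2 6.40, SE 0.41, adjusted p = 5.75e-05), and from 26.3 and 58.6 in Eff to 5490.5 and 6027 in LPSEff (log2 7.16, SE 0.41, adjusted p = 2.99e-05). Tnfrsf8 (CD30) rose by 2.34 and 2.45 on the log2 scale (SE 0.28 each, adjusted p = 0.000897 and 0.000797). Tnfrsf11b, the gene of osteoprotegerin, a soluble decoy of RANK ligand and TRAIL, rose by 1.75 (SE 0.40, adjusted p = 0.0152) and 2.29 (SE 0.40, adjusted p = 0.00559). For Tnfrsf11b the first call was lost without Ctrl replicate 1 (adjusted p = 0.101) or LPS replicate 2 (0.0759).

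Tnfrsf12a, the receptor of TWEAK, was the one gene of the lists that limma without the replicate block called with efferocytosis, in LPSEff vs LPS, where 0.773% of all genes were called. With the block, 11 list genes were called there, where limma with the block called 6.97% of all genes, and 8 in Eff vs Ctrl, where it called 2.67%. Tnfrsf12a measured 24.6 and 25.4 normalized counts in LPS and 133 and 193 in LPSEff (log2 2.63, SE 0.33, adjusted p = 0.0214), and 60.9 and 42.8 in Ctrl against 114 and 180 in Eff (log2 1.47, SE 0.33, adjusted p = 0.232). The call was lost without any one of the 4 samples, with adjusted p-values from 0.0639 (without LPS replicate 1) to 0.202 (without LPSEff replicate 2). In Eff vs Ctrl, DESeq2 called Tnfrsf12a (adjusted p = 0.0294) and Tnfrsf11b (0.00871), as did limma with the block (0.0251 and 0.00963). Tnfrsf11b was lower in both Eff samples (28.04 and 26.1 normalized counts) than in both Ctrl samples (66.6 and 117). The summed fibroblast markers were 366 to 510 normalized counts in LPS and 3046 to 3499 in LPSEff, and their part in this difference was not tested.

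Among 32 genes of the receptor complexes and their signalling, all tested, 17 rose and 2 fell in LPS vs Ctrl, and 16 rose and 2 fell in LPSEff vs Eff, with medians of 0.83 and 0.88. Over all genes tested, 12.4% were called higher and 11.6% lower in LPS vs Ctrl, and 10.7% and 8.95% in LPSEff vs Eff. Tnfaip3 (A20), a ubiquitin-editing enzyme that restrains NF-κB, went from 775 and 644 normalized counts in Ctrl to 11124 and 8370 in LPS (log2 3.77, SE 0.29, adjusted p = 0.000107), and rose by 3.70 (SE 0.29, adjusted p = 0.000105) in efferocytic BMDMs. Traf1, an adaptor that binds TNFR2 together with Traf2, rose by 3.12 (SE 0.20, adjusted p = 5.72e-05) and 3.32 (SE 0.20, adjusted p = 3.56e-05). Cflar encodes the caspase-8 inhibitor cFLIP and rose by 2.76 (SE 0.21, adjusted p = 0.000116) and 2.68 (SE 0.21, adjusted p = 0.00012). Birc3, the ubiquitin ligase cIAP2 of the TNF receptor complex, rose by 2.53 (SE 0.27, adjusted p = 0.000519) and 2.69 (SE 0.27, adjusted p = 0.000401). The adaptor and kinase next to TNFR1, Tradd and Ripk1, singled out after their values had been seen, had log2 fold changes of -0.17 and 0.01 in naïve BMDMs and were not called.

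Of 20 genes that control Tnf mRNA or the shedding of its protein, 7 rose and 3 fell in LPS vs Ctrl, and 6 rose and 3 fell in LPSEff vs Eff. Across all genes tested, 12.4% were called higher and 11.6% lower in LPS vs Ctrl, and 10.7% and 8.95% in LPSEff vs Eff. Zc3h12a, which encodes the RNase Regnase-1, rose from 168 and 181 normalized counts in Ctrl to 2164 and 1272 in LPS (log2 3.24, SE 0.33, adjusted p = 0.00043), and by 2.76 (SE 0.33, adjusted p = 0.00102) in efferocytic BMDMs. Zfp36l2, a relative of tristetraprolin that binds AU-rich elements, fell from 1767 and 1217 to 444 and 241 (log2 -2.16, SE 0.34, adjusted p = 0.0032), and by 1.75 on the log2 scale (SE 0.34, adjusted p = 0.00949) in efferocytic BMDMs. The latter call was lost without Eff replicate 1 (adjusted p = 0.0698) or LPSEff replicate 2 (0.0582). Rhbdf2 (iRhom2), which brings the TNF sheddase ADAM17 to the cell surface, rose by 1.60 (SE 0.25, adjusted p = 0.00299) and 1.5003 (SE 0.25, adjusted p = 0.00478). Sppl2a, a protease that cuts the membrane stub of TNF, rose by 1.44 (SE 0.35, adjusted p = 0.0206) and 1.64 (SE 0.35, adjusted p = 0.0137). For Sppl2a leaving out Ctrl replicate 1, LPS replicate 2, Eff replicate 1 or LPSEff replicate 2 gave adjusted p-values of 0.133, 0.0956, 0.0948 and 0.0795.

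**Figure D5:**
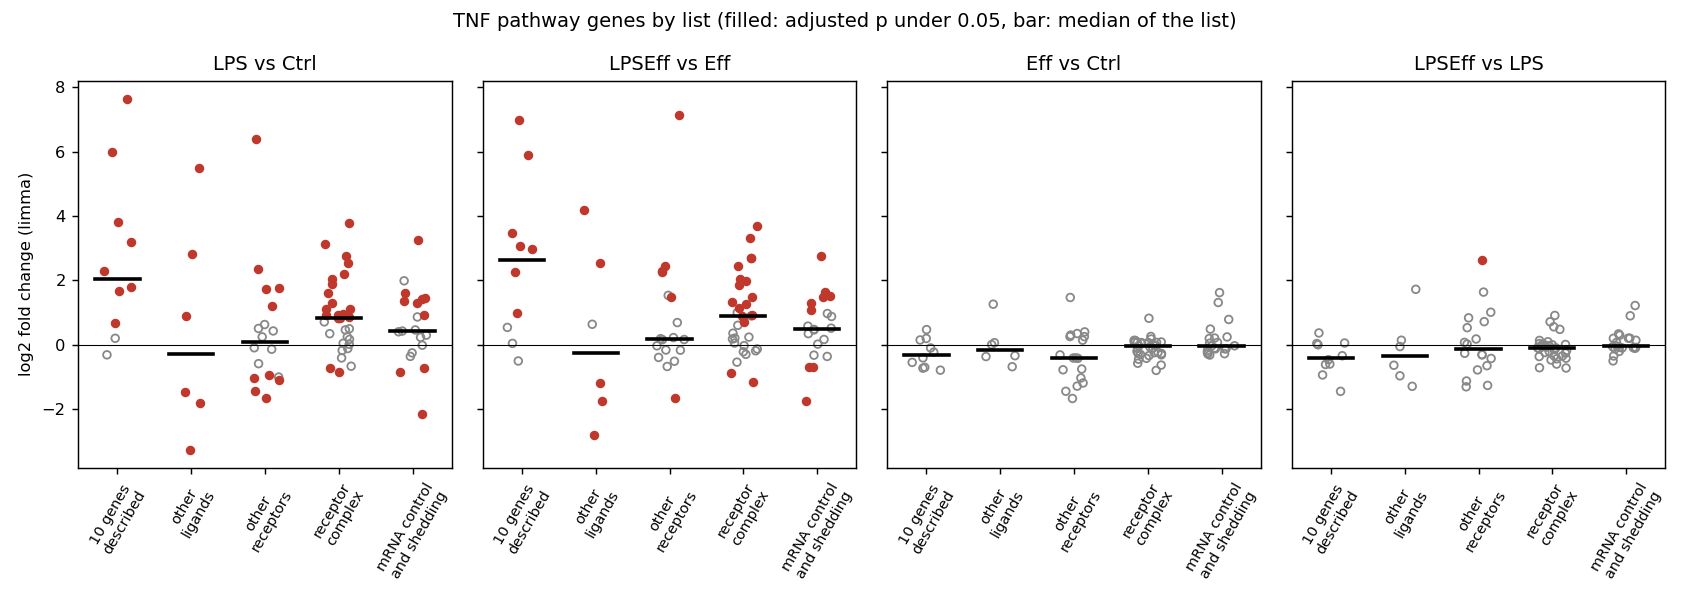
Log2 fold changes (limma) of all tested genes of the 5 lists in the 4 comparisons, with filled red points where the adjusted p was under 0.05 and a bar at the median of each list. In both LPS/IFNγ comparisons the medians of the 10 genes are 2.05 and 2.62, those of the receptor complex list 0.83 and 0.88, and in both efferocytosis comparisons 1 point, Tnfrsf12a in LPSEff vs LPS at 2.63, is filled.

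Over the 8 samples, the genes most like a given gene were found by Pearson's r of log2(normalized count + 1) among all tested genes, as a description of 8 points that share libraries and treatment. The nearest to Tnf was Itga5, an integrin subunit (r = 0.999), which measured 1318 and 1346 normalized counts in Ctrl against 5256 and 5089 in LPS, with 1415 and 1185 in Eff against 3832 and 3639 in LPSEff. Like Tnf, it was lower in both LPSEff samples than in both LPS samples. Nearest to Tnfsf15 were Peli1 (r = 0.998) and Trim21 (r = 0.997), ubiquitin ligases. For Tnfsf10 they were Gm50130 (0.998) and Tgtp2 (0.994), an interferon-inducible GTPase gene. For Lta, Rbm7 had r = 0.996, and for Tnfsf9 they were Cdk5r1 and Cdyl2 (0.988 and 0.987).

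Nearest to Ltb was Gm28044 (r = 0.992), followed by Kmo (0.992), the kynurenine monooxygenase, at 97.1 and 525 normalized counts in Ctrl against 85.4 and 451 in LPS, with 88.5 and 319 in Eff against 67.3 and 206 in LPSEff. Kmo was thus higher in replicate 2 of all 4 groups, as Ltb was. Tnfsf13b had the weakest likeness, with 0.950 for Fbxo34 and 0.949 for Epb41l3. Receptors were nearest to Nr1h2 and Sirt6 (Tnfrsf1a, 0.992 and 0.990), to Tmem132a and Slc15a3 (Tnfrsf1b, 0.997 and 0.993) and to Psmd10 and Cxcl16 (Fas, 0.996 and 0.994). Among the 10 genes themselves, Tnf had r = 0.986 with Tnfsf15 and 0.973 with Tnfsf10, against -0.23 with Ltb and 0.04 with Tnfsf13b.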

How the data were processed

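Total RNA-seq libraries of 8 BMDM samples were analysed. The authors depleted rRNA, and the submitters' processing notes name cutadapt, Bowtie2, STAR, HTSeq and DESeq2 and the build mm39; versions and the annotation release are not given in the sources used here. The authors deposited normalized counts, a signal per gene made by dividing reads by 1 size factor per sample. In every sample 100% of values were whole multiples (tolerance 0.01) of the smallest one, which gave back the reads. The authors ran htseq-count with default parameters, in which reads shared by genes are not counted, and nothing else is stated on strand. On GRCm39 (GENCODE), 4 of the 10 genes (Lta, Ltb, Tnfrsf1b and Fas) overlap another gene on their strand and 7 a gene on the opposite strand. None of those overlapping Tnfrsf1b is among the 55359 genes deposited, and for Ltb and Fas 1 each is. Values of genes that overlap a deposited gene are less certain. For an overlap on the opposite strand this holds only if reads were counted without regard to strand. Gene names were found for 54749 of 55359 genes, and promoter sequences were read from GRCm39.

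Genes averaging 10 normalized counts or more (16309) entered a single limma-trend fit (limma 3.58.1 under R 4.3.3) of log2(normalized count + 1) on the 4 groups, leaving 4 residual degrees of freedom. The replicate numbers are not said to mark a shared preparation, but deviations of same-numbered samples from their group means correlated at 0.404 to 0.595 in all 6 pairs of groups, so that calls changed by a fit with the number as a block are given beside the result. Calls required a two-sided p under 0.05 after Benjamini-Hochberg adjustment over these genes. The code was tested on simulated data. The 10 genes and the lists were chosen with earlier results of these data known. Named besides the 10 genes were the 3 largest called changes of each list in a comparison, the 2 genes most correlated with each gene, and genes said to be singled out. Some items that these rules name are not reported here. Alternatives were other pseudocounts, filters and scalings, only the groups compared, count tests of the recovered reads (edgeR 4.0.16, DESeq2 1.42.0), the replicate number as a block, and leaving out each replicate.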

Additional observations from a re-analysis of the deposited data

How the results depend on the processing

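Of the alternatives with a replicate left out, the calls among the 10 genes ranged from 6 to 7 for LPS vs Ctrl (8 with all samples) and from 6 to 7 for LPSEff vs Eff (7), and those in the pathway lists from 21 to 37 (45), from 20 to 27 (38) and, for LPSEff vs LPS, from 0 to 0 (1). List calls moved by over 1.5 times without Ctrl replicate 1 (21) or LPS replicate 2 (27) in LPS vs Ctrl, without Eff replicate 1 (20) or LPSEff replicate 1 (23) in LPSEff vs Eff, and without any of the 4 samples in LPSEff vs LPS. A lone sample was assumed there to vary like the other groups. Over all genes tested, fewer were called in each of these fits too, so that the loss was not particular to the lists. With the replicate block (3 residual degrees of freedom), 2 of the 10 genes were called in LPSEff vs LPS instead of 0, Tnf (adjusted p = 0.0131) and Tnfsf15 (0.00216), 8 instead of 7 in LPSEff vs Eff, with Tnfrsf1a (0.0137), and the pathway lists had 8 calls instead of 0 in Eff vs Ctrl and 11 instead of 1 in LPSEff vs LPS. All genes called numbered 436 instead of 41 and 1137 instead of 126, and 6717 instead of 3910 and 6033 instead of 3213 in LPS vs Ctrl and LPSEff vs Eff. At equal totals the last was 5578. With only the groups compared, the calls over all genes were 9 for Eff vs Ctrl, against 66 for LPSEff vs LPS. The former had 79 with all genes of a mean above 0 and 20 at a mean of at least 50. Without Eff replicate 2, 0 of all genes were called in Eff vs Ctrl, and without LPSEff replicate 1, 0 in LPSEff vs LPS. DESeq2 gave 2 of the 10 genes in LPSEff vs LPS, and 2 and 3 pathway genes in Eff vs Ctrl and LPSEff vs LPS, where it called 204 and 368 of all genes. For Eff vs Ctrl edgeR called 14 of all genes, and DESeq2 with the block called 29 in the interaction, where limma called 0. With the block, edgeR and DESeq2 (chosen after seeing the data) called 2 of the 10 genes each in LPSEff vs LPS, 8 and 9 pathway genes in Eff vs Ctrl, and 12 and 14 in LPSEff vs LPS. Over all genes they called 429 and 520 for Eff vs Ctrl, 1233 and 1082 for LPSEff vs LPS, and 6314 and 5294 for LPSEff vs Eff (edgeR also 6663 in LPS vs Ctrl).

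Signs turned for values that were not called. The Tnfsf10 interaction was 0.19 with quantile normalization, 0.65 with edgeR and 0.60 with DESeq2. Tnfsf13b was -0.18 at equal totals and -0.0102 with edgeR in LPS vs Ctrl, and -0.39, -0.0916 (edgeR) and -0.0960 (DESeq2) in LPSEff vs Eff. Tnfrsf1a was -0.0367 at equal totals and -0.00961 (DESeq2) in LPSEff vs LPS. Leaving out a replicate gave, for Eff vs Ctrl, -0.44 to 0.24 (Tnf), -1.61 to 0.15 (Lta), -1.40 to 0.58 (Ltb), -1.60 to 0.50 (Tnfsf10) and -0.52 to 0.91 (Tnfsf13b), for LPSEff vs LPS, -1.77 to 0.57 (Ltb), -0.68 to 0.0020 (Tnfsf9), -0.0089 to 0.086 (Tnfsf13b), -0.15 to 0.15 (Tnfrsf1a) and -0.21 to 0.31 (Fas), for LPS vs Ctrl, -1.48 to 0.86 (Ltb) and -0.51 to 0.91 (Tnfsf13b), for LPSEff vs Eff, -1.15 to 0.14 (Ltb) and -0.67 to 0.76 (Tnfsf13b), and for the interaction, -0.62 to 1.14 (Lta), -1.36 to 0.98 (Ltb), -1.12 to 0.99 (Tnfsf10) and -0.87 to 0.55 (Tnfsf13b). The cause was not tested. The order of levels kept 34 of 40 places with the longest transcript as length, and by Spearman's rho 0 of the 20 most similar genes were the same. Fits of only the groups compared give no interaction, and Tnfsf13b has no value at a mean of at least 50 normalized counts. The shallowest sample, Ctrl replicate 1, held 3481288 reads, of which 6 were on Lta, 2 on Tnfsf10 and 8 on Tnfsf13b.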
